A study of Mus musculus with 53 samples.

Results

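The genes examined here are Fgf4, the FGF ligand made by epiblast-fated cells, and Fgfr1 and Fgfr2, the receptor tyrosine kinases that receive it in the early mouse embryo. These are 3 of 20482 protein-coding genes placed on the mouse genome mm10 (GRCm38). They were chosen by name, not by a measured value, though earlier results of these data were known. Every deposited peak that touched a gene body or the 50 kb on either side of it was collected. These windows spanned 103.9 kb at Fgf4 (chr7:144811386-144915245), 157.0 kb at Fgfr1 (chr8:25468759-25625718) and 204.4 kb at Fgfr2 (chr7:130112451-130316808). Together they held 607 peaks of 35 libraries, and the SOX2 and GATA6 peaks among them merged into 33 of the 72577 such regions in the genome.

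The libraries are CUT&RUN profiles, in which an antibody directs micrococcal nuclease to a protein or histone mark and the released DNA is sequenced. The cells were SGGC, a mouse E14JU embryonic stem cell (ESC) line whose endogenous SOX2 is fused to GFP and endogenous GATA6 to mCherry, so that every group carries both fusions. There were 10 SOX2, 5 GATA6, 9 H3K27ac and 9 H3K4me1 libraries with a group, and the peak lists were called by the authors one library at a time. Lists ranged from 1378 to 401853 peaks. Cells kept in 2iLIF received a MEK inhibitor, a GSK3 inhibitor and leukemia inhibitory factor (LIF), so that in these cells ERK signalling, the main output of FGF receptors, was blocked, whereas ESCs in NACL received Activin A, the GSK3 inhibitor and LIF. From cultures in KnockOut Serum Replacement medium (KOSR), cells positive for SOX2 only (SOX2+) and cells positive for SOX2 and GATA6 (double-positive, DP) were sorted, in experiments A, A1 and B. Naive extra-embryonic endoderm (nEnd) cells are a self-renewing model of the primitive endoderm (PrE). The 2iLIF, NACL and nEnd libraries came from clones B9 and B12, except that both nEnd H3K4me1 libraries came from B9, and all KOSR libraries came from B12. 2iLIF, NACL and SOX2+ are called pluripotent below. DP histone marks rest on 1 library each (experiment A) and were not tested.

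FGF4 secreted by the nascent epiblast binds FGFR1, present on both lineages of the inner cell mass, and FGFR2, which is enriched in PrE precursors. Signalling through ERK then favours GATA6 over NANOG and drives cells to the PrE. SOX2 together with OCT4 activates Fgf4 in pluripotent cells through an enhancer that lies in the last exon of the gene, one of the first SOX2 targets described.

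The cell identities were checked by H3K27ac within 1 kb of a start site of 6 pluripotency and 6 PrE marker genes. The 6 pluripotent libraries carried H3K27ac at 5 or 6 pluripotency markers, and the nEnd libraries at 2 (B12) and 3 (B9), with Sox2, Nanog and Esrrb unmarked in both. PrE markers were marked at 6 (B12) and 5 (B9) of 6 in nEnd and at 1 and 0 of 6 in SOX2+, but at 3 and 3 in 2iLIF and at 6 and 4 in NACL, whose H3K27ac lists covered 13.2% to 21.6% of the genome. The DP library marked 6 pluripotency and 3 PrE markers. H3K27ac lists of SOX2+ (0.96% and 1.05% of the genome) and nEnd (6.43% and 5.03%) were far smaller, so levels below are ranks within a library, shares of its own peaks, or coverage set beside its genome coverage.

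Sequences are given for the binding sites on which the results turn, from the RefSeq GRCm38.p6 genome, 5′ to 3′ on the plus strand, with capitals for the motif letters searched on either strand. SOX motifs were read as ACAAAG or, in a variant form of the same element, as ACAATG. OCT motifs were ATGCAAAT and ATGCTAAT. GATA motifs were read as AGATAA or, in a variant form of the same element, as TGATAA. No match of one motif overlapped a match of another in the sequences printed. The first is 30 bases around a SOX and OCT motif pair beside the SOX2 maximum of Fgf4 (chr7:144864388-144864417), the second 200 bases at the region downstream of Fgfr2 bound by GATA6 and SOX2 (chr7:130149074-130149273), and the third 200 bases at the SOX2 region in the first intron of Fgfr2 (chr7:130264719-130264918).
Fgf4 last exon: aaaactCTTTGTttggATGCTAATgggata
Fgfr2 downstream: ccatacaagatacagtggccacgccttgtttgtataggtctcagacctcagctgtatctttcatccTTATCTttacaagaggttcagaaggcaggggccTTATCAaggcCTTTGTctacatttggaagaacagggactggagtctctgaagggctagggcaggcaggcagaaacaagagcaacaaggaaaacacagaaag
Fgfr2 first intron: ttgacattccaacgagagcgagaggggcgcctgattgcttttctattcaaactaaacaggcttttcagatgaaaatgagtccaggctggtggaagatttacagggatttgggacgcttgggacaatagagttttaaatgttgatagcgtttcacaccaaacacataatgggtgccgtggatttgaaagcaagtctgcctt

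The Fgf4 site paired a SOX match, read on the minus strand, with an OCT match 4 bases further on. SOX letters occurred in 62.3% and OCT letters in 10.1% of the 29623 windows of 200 bases around the peak maxima of the NACL B9 SOX2 library. The downstream Fgfr2 sequence held 2 GATA matches and 1 SOX match within 49 bases, all read on the minus strand. GATA letters were in 72.4% and both GATA and SOX letters in 31.9% of the 32510 such windows of the nEnd B12 GATA6 library. The intronic Fgfr2 sequence held no SOX or OCT match of these letters. A match of letters is a description of the sequence and does not show what binds.

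At Fgf4, SOX2 was found at the last exon in every pluripotent library, and GATA6 was found nowhere in the window. The leading region (chr7:144864096-144864800) has its maximum 2.99 kb downstream of the start site, in the 3′ UTR of exon 3 of 3, and was present in 9 of 10 SOX2 libraries. Its peak was stronger than 63.9% (B12) and 84.6% (B9) of the library's SOX2 peaks in 2iLIF. In NACL it was stronger than 92.9% (B12) and 91.0% (B9) of them. In SOX2+ it exceeded 94.9% (A), 92.6% (A1) and 89.9% (B) of peaks. In DP it exceeded 64.1% (A) and 58.1% (A1) of peaks, while the DP library of experiment B, with 1378 peaks in all, had none. The lowest pluripotent value, of 2iLIF B12, lay just below that of DP A, and the other 6 lay above both DP values. The maxima of the 9 peaks lay between 2965 and 3004 bp from the start. The SOX and OCT matches printed above are 18 and 29 bp downstream of the maximum in SOX2+ A.

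Another SOX2 region lay at -3.43 kb, upstream of Fgf4 (chr7:144857554-144858504). It was found in both NACL libraries and in SOX2+ A and A1, and in neither 2iLIF nor any DP library. These peaks were weak, exceeding 28.01% (NACL B12), 58.4% (NACL B9) and 3.61% (SOX2+ A) of peaks in their lists, and in SOX2+ A1 no peak of the list was weaker. The other 3 regions, at -39.3, -4.1 and 27.7 kb, were each present in the NACL B9 library alone. None of the 5 GATA6 libraries, with lists of 1391 to 32510 peaks, placed a peak in the window. Of the 5828 genes whose window held SOX2 in all 7 pluripotent libraries, 9.2% likewise had no GATA6 peak in any library. The neighbouring ligand genes Fgf3 and Fgf15 and the start of LTO1 lie in the same window, and a peak cannot be assigned to one gene by position.

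**Figure D1:**
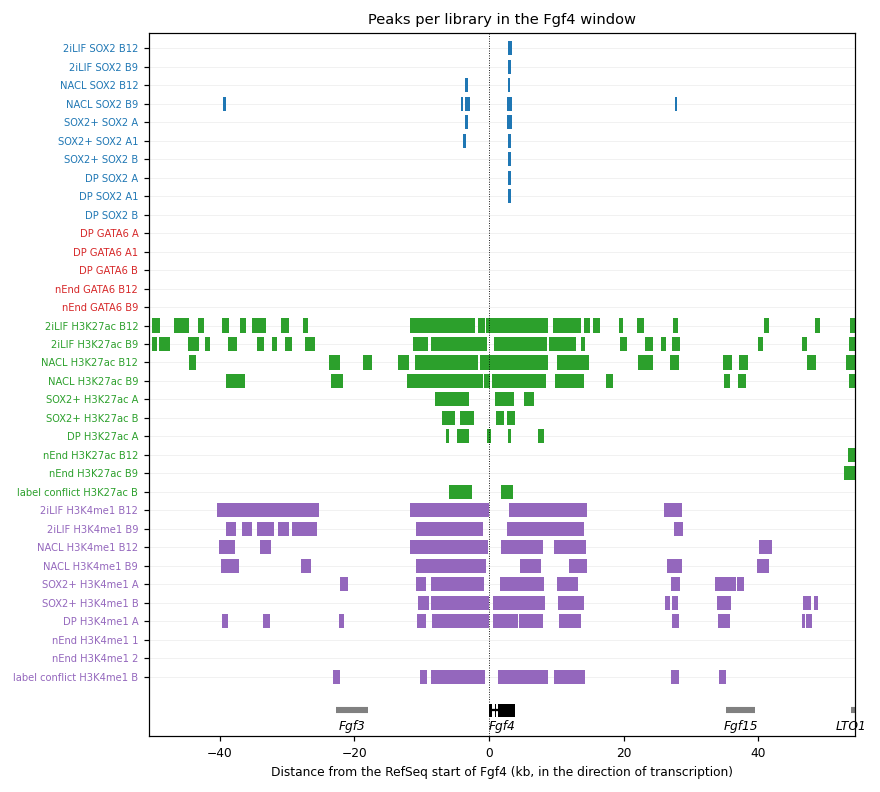
Peaks per library in the Fgf4 window, as bars against distance from the RefSeq start site (kb, 0 marked by the dotted line), with each row 1 library coloured by antibody (SOX2 blue, GATA6 red, H3K27ac green, H3K4me1 purple). Exons of Fgf4 are black and neighbouring genes grey, and narrow peaks are widened to 0.25 kb to be visible. The SOX2 peak at 2.99 kb stands in 9 of 10 SOX2 rows, the 5 GATA6 rows and both nEnd H3K4me1 rows are empty, and the nEnd H3K27ac rows hold 1 peak each at the right edge.

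Both histone marks spread across Fgf4 in pluripotent cells and were absent from it in nEnd. H3K27ac peaks covered 38.8% (B12) and 38.0% (B9) of the window in 2iLIF and 37.1% (B12) and 31.6% (B9) in NACL. Coverage was 9.02% (A) and 6.24% (B) in SOX2+, 4.07% in DP (A), and 0.543% (B12) and 1.11% (B9) in nEnd. Relative to the share of the genome each library covered, the window was enriched 1.8 to 2.89 times in 2iLIF and NACL, 9.4 (A) and 5.95 (B) times in SOX2+ and 1.73 times in DP, and depleted to 0.0845 (B12) and 0.22 (B9) in nEnd. The single peak of each nEnd library lay between 52.7 and 58.4 kb, over the start of LTO1. In 2iLIF and NACL, touching H3K27ac peaks of both libraries merged into a region across the start site. It was 20.4 kb long in 2iLIF (from -11.7 to 8.72 kb) and 22.3 kb in NACL (from -13.6 to 8.75 kb). Such a region holds peaks of both libraries but is not marked in both at every base. In 2iLIF B9 the start itself lay in a gap between peaks. In SOX2+ the merged regions were 5.86 kb upstream and 2.94 kb (from 0.921 to 3.86 kb) over the last exon, where the SOX2 region lies.

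H3K4me1, a mark of enhancers, covered 39.8% (B12) and 32.1% (B9) of the Fgf4 window in 2iLIF and 27.3% (B12) and 23.5% (B9) in NACL. It covered 24.7% (A) and 26.6% (B) in SOX2+ and 26.1% in DP. Over genome coverage the window was enriched 3.6 times in DP, less than in any of the 6 pluripotent libraries, where it was at least 5.26 times. Neither nEnd library (42816 and 18627 peaks) had an H3K4me1 peak in the window. Of the 11900 genes with H3K4me1 in all 6 pluripotent libraries, 4.95% lacked it in both nEnd libraries. The strongest H3K4me1 peak at Fgf4 exceeded 96.7% to 99.3% of the peaks in the 6 pluripotent libraries and 97.0% in DP. With 1 DP library, neither its likeness to the pluripotent libraries nor its difference from nEnd was tested.

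For a test over libraries, each list was cut to the same number of strongest peaks N, the size of the smallest list in the comparison, and a gene was scored by log10 of (N + 1) over the rank of its strongest peak. A score of 0 means no peak among the N strongest, and 1 unit is a 10-fold better rank. For H3K27ac (N = 13514) the Fgf4 scores ranged from 0.81 (SOX2+ B) to 1.45 (SOX2+ A) in the 6 pluripotent libraries and were 0.00 in both nEnd libraries. The mean was 1.19 ± 0.27 (SD, n = 6) in pluripotent cells and 0.00 in nEnd (n = 2), and the groups did not overlap, as for 12.1% of the 16375 genes tested in this direction. For H3K4me1 (N = 18627) the mean was 1.73 ± 0.39 (SD, n = 6) against 0.00 in nEnd (n = 2), again without overlap, as for 11.6% of 17085 genes. With 2 libraries against 6 the exact permutation test cannot go below p = 0.0714, which both marks reached, and the Benjamini-Hochberg adjusted values over all genes were 0.212 and 0.245. No difference at Fgf4 therefore passed the threshold of 0.05.

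Fgfr2 showed the opposite arrangement, with GATA6 regions and nEnd H3K4me1 across the locus and pluripotent SOX2 mostly at other positions. Of the 22 SOX2 or GATA6 regions in its window, 18 held GATA6, 7 held SOX2 and 1 held both GATA6 and pluripotent SOX2. How often GATA6 regions over the genome also hold pluripotent SOX2 was not counted. The leading region lies 117.6 kb from the start site, beyond the 3′ end of the gene (chr7:130148667-130149605), and was occupied by GATA6 in all 5 GATA6 libraries. Its GATA6 peak ranked 54 of 8316 (DP A), 60 of 3821 (DP A1) and 81.5 of 1391 (DP B), tied ranks being averaged. It ranked 19 of 32510 (nEnd B12) and 105.5 of 24223 (nEnd B9). In every GATA6 library it was the strongest peak of the window, above 93.8% to 99.9% of all peaks of its library.

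SOX2 was found at the same downstream Fgfr2 region in DP A (above 70.1% of its peaks) and DP A1 (above 23.9%), not in DP B, and in none of the 7 pluripotent libraries. The GATA and SOX letters printed above lie within the 200 bases around the GATA6 maximum of nEnd B12. Across the genome, 28.7% of the 3457 regions with GATA6 in at least 2 DP libraries also had SOX2 in at least 2, and 9.03% of the 3554 regions with SOX2 in at least 2 DP libraries had it in no pluripotent library. Of the 835 regions with GATA6 in all 5 libraries (1.15% of all regions), 17.4% combined both features as this one did. The DP H3K27ac library had a peak over it, as did both nEnd H3K27ac libraries and 1 of 2 NACL libraries, and H3K4me1 was there in DP and in both nEnd libraries and in no pluripotent one. The SOX2 call in DP A1 was in the weaker 50% of its list, and without either DP A or DP A1 the region no longer counted as shared by SOX2 and GATA6.

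A further 2 Fgfr2 regions held GATA6 in all 5 libraries. The one 125.4 kb from the start (chr7:130141134-130141868), also downstream of the gene, exceeded 85.7% (A), 83.7% (A1) and 5.97% (B) of DP peaks and 97.7% (B12) and 91.7% (B9) of nEnd peaks, with SOX2 in DP A1 alone. The one at 11.4 kb (chr7:130254937-130255745), in intron 2, exceeded 71.0% (A), 65.6% (A1) and 55.4% (B) of DP peaks and 76.9% (B12) and 4.94% (B9) of nEnd peaks, with no SOX2. Only 0.0879% of gene windows (18 of 20482) held 3 or more regions with GATA6 in all 5 libraries, a count chosen after the Fgfr2 values were seen and one that long windows reach more readily. Another region, at 101.2 kb in the last intron (chr7:130165283-130165935), had GATA6 in DP A and A1 and in both nEnd libraries, above 87.9% (A) and 81.3% (A1) of DP peaks and 96.5% (B12) and 93.3% (B9) of nEnd peaks.

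Altogether 10 regions at Fgfr2 had GATA6 in both nEnd libraries and 5 had it in at least 2 DP libraries, with 4 in common. The DP count of 5 fell to 3 without DP A or without DP A1 and stayed at 5 without DP B. Genome-wide, 64% of regions with GATA6 in at least 2 DP libraries had it in both nEnd libraries, and 11.2% of the latter had it in at least 2 DP libraries, so 4 of 5 and 4 of 10 at Fgfr2 stand beside these shares. Per 100 kb the window held 4.89 regions with GATA6 in both nEnd libraries, against a median of 0.854 over all genes, and 4.21% of windows were at least as dense. The remaining 8 regions with nEnd GATA6 were seen in 1 nEnd library, each time B12, the library with more peaks. By the scored rank (N = 1391), Fgfr2 GATA6 was 1.41 (A), 1.37 (A1) and 1.23 (B) in DP and 1.86 (B12) and 1.12 (B9) in nEnd. The DP values lay between the nEnd values and, within clone B12, below that of nEnd B12. The difference was -0.16 for DP minus nEnd, with an exact permutation p = 0.8 over 10 splits, whose smallest possible value is 0.2. Ranked by total instead of maximum signal it was -0.64, and by the share of weaker peaks -2.59 percentage points, with DP below both nEnd libraries in each (exact permutation p = 0.2, adjusted p = 0.468 and 0.293).

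In pluripotent cells SOX2 occupied a different part of Fgfr2. A region in intron 1, 1.99 kb downstream of the start (chr7:130264538-130265098), had SOX2 in 7 of 7 pluripotent libraries and in 0 of 3 DP libraries. Its peak exceeded 28.7% (B12) and 69.0% (B9) of peaks in 2iLIF and 84.4% (B12) and 91.3% (B9) in NACL. In SOX2+ it exceeded 84.0% (A), 84.5% (A1) and 62.0% (B) of peaks. The 2iLIF B12 library was thus the lowest by far, and no value exists for DP. Of the 4902 regions with SOX2 in all 7 pluripotent libraries, 36.5% likewise had none in DP, whose lists are shorter (1378 to 5320 peaks against 8203 to 29623). No GATA6 library had a peak there. A region at 89.8 kb (chr7:130176737-130177451) had SOX2 in NACL B12 and all 3 SOX2+ libraries together with nEnd B12 GATA6, and one at 100.3 kb (chr7:130166306-130166762), beside the GATA6 region of the last intron, had SOX2 in 2iLIF B9, both NACL libraries and SOX2+ A.

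**Figure D2:**
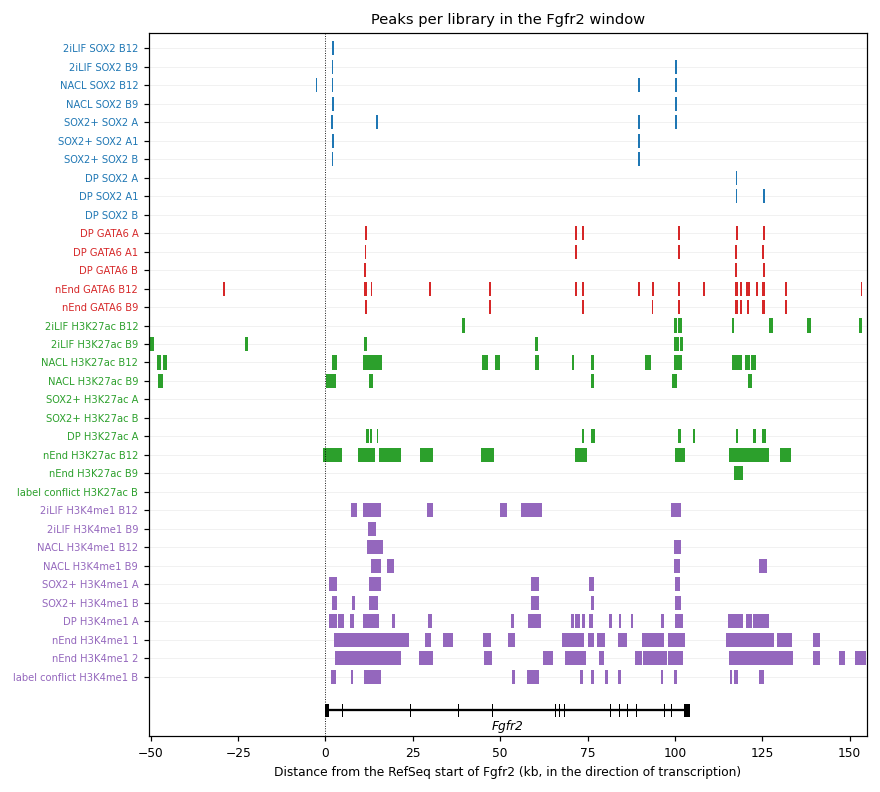
Peaks per library in the Fgfr2 window against distance from the RefSeq start site in the direction of transcription (kb), with rows and colours by antibody as in the map of the ligand gene and narrow peaks widened to 0.5 kb. Downstream of the gene, GATA6 peaks stand at 117.6 and 125.4 kb in DP and nEnd rows, and at further positions in nEnd rows alone. The SOX2 peak at 1.99 kb stands in all 7 pluripotent rows and in none of the 3 DP rows, and H3K4me1 is densest in the 2 nEnd rows.

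H3K4me1 at Fgfr2 was broadest in nEnd. It covered 36.4% and 35.6% of the window in the nEnd libraries, against 9.48% (B12) and 1.19% (B9) in 2iLIF, 3.25% (B12) and 4.29% (B9) in NACL and 5.36% (A) and 4.98% (B) in SOX2+. DP, with 17.7%, lay between the groups, though its list also covered more of the genome (7.25%) than those of nEnd (6.08% and 2.94%). Against genome coverage the window was enriched 5.99 and 12.1 times in nEnd, 2.44 times in DP and 0.364 to 1.36 times in the 6 pluripotent libraries. Merged regions with H3K4me1 peaks of both nEnd libraries, not marked in both at every base, summed to 70.0 kb in 9 pieces. The longest were 21.5 kb in the first introns (2.41 to 23.9 kb) and 19.2 kb downstream of the gene (114.5 to 133.7 kb). The latter contains the GATA6 regions at 117.6 and 125.4 kb. In SOX2+, NACL and 2iLIF, merged regions of this kind summed to 11.4, 6.64 and 5.03 kb.

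The H3K4me1 score of Fgfr2 (N = 18627) was 1.42 and 2.69 in nEnd. Pluripotent scores ran from 0.00 (2iLIF B9) to 0.51 (SOX2+ B). The means were 2.05 ± 0.90 (SD, n = 2) and 0.19 ± 0.20 (SD, n = 6), a difference of 1.87, and the groups did not overlap, as for 17.5% of genes in this direction. The exact permutation p was 0.0714, the smallest possible, and 0.245 after adjustment over all genes. Both nEnd values come from clone B9, and the pluripotent libraries of that clone scored 0.00 (2iLIF B9) and 0.06 (NACL B9), below both.

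H3K27ac at Fgfr2 differed between the nEnd libraries themselves. The B12 library had 9 peaks covering 45.2 kb (22.1% of the window), and the B9 library had 1 peak of 2.5 kb (1.22%), placed on the downstream region with the strongest GATA6 peak. Both SOX2+ libraries had none, as for 42.2% of gene windows. The DP library had 10 peaks covering 3.48% of the window, and 6 of the 18 GATA6 regions carried one, those at 11.4, 13.1, 73.7, 101.2, 117.6 and 125.4 kb. The share of all GATA6 regions in the genome with a DP H3K27ac peak was not counted. In 2iLIF coverage was 3.31% (B12) and 2.72% (B9), and in NACL 11.9% (B12) and 4.04% (B9). Over genome coverage these came to 0.154 and 0.206 in 2iLIF and 0.744 and 0.259 in NACL, below 1 in each, against 1.48 in DP and 3.44 (B12) and 0.243 (B9) in nEnd. The scored means (N = 13514) were 0.24 ± 0.34 (SD, n = 2) in nEnd and 0.00 (n = 6) in pluripotent cells, which overlapped (exact permutation p = 0.5).

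Fgfr1, the receptor shared by both lineages, had SOX2 in pluripotent cells and next to no GATA6. Its leading region, at -5.18 kb and over an upstream transcript start (chr8:25513136-25513788), had SOX2 in 6 of 7 pluripotent libraries, the exception being 2iLIF B12. The peak exceeded 44.7% of peaks in 2iLIF B9 and 0.52% (B12) and 34.8% (B9) in NACL. In SOX2+ it exceeded 0.696% (A), 12.3% (A1) and 20.5% (B), so most of these calls were near the bottom of their lists. Another 2 regions in intron 2, at 26.3 kb (4 libraries) and 29.4 kb (3 libraries), and 1 at -42.9 kb (3 libraries) were also pluripotent only. The strongest of them, in NACL B9 at 29.4 kb, exceeded 78.0% of peaks. No SOX2 peak fell in the Fgfr1 window in any DP library. GATA6 was present in 1 peak of DP A, at -3.61 kb (above 43.6% of peaks), and 1 of nEnd B9, at 101.9 kb and within Nsd3 (above 26.7%). Over all genes, 67.7% of windows held a region with SOX2 in at least 2 pluripotent libraries and 20.7% one with SOX2 in at least 2 DP libraries. For GATA6 the shares were 20.8% in at least 2 DP libraries and 62% in both nEnd libraries, so lacking DP regions is the usual state.

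**Figure D3:**
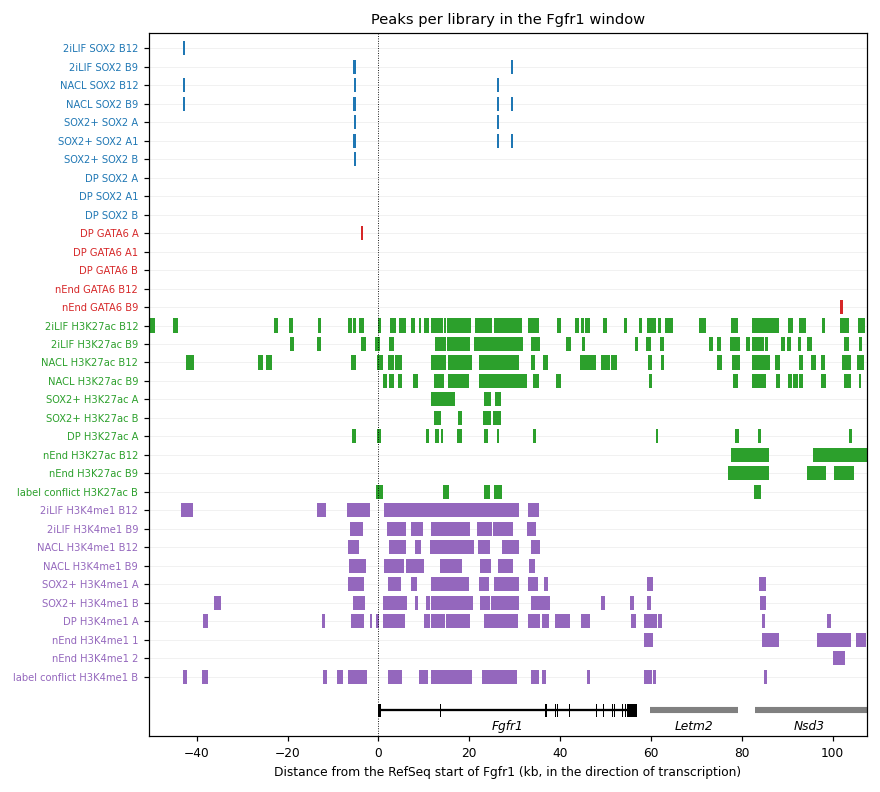
Peaks per library in the Fgfr1 window against distance from the RefSeq start site (kb), with rows and colours by antibody as in the maps of the other genes, Letm2 and Nsd3 in grey, and narrow peaks widened to 0.5 kb. SOX2 peaks stand in pluripotent rows and in no DP row. In the nEnd rows H3K27ac and H3K4me1 lie downstream of the gene, while pluripotent and DP rows hold them within it.

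Histone marks over the body of Fgfr1 were a feature of pluripotent and DP cells. H3K27ac covered 37.8% (B12) and 27.4% (B9) of the window in 2iLIF, 32.7% (B12) and 22.6% (B9) in NACL, 5.24% (A) and 3.85% (B) in SOX2+ and 6.17% in DP. In nEnd it covered 12.5% (B12) and 11.1% (B9), but not over the gene itself. The merged regions with peaks of both nEnd libraries ran from 77.1 to 86.1 kb, over the start of Nsd3, and from 94.4 to 112.2 kb, within Nsd3. Over genome coverage the order was another, with 5.46 (A) and 3.66 (B) in SOX2+, 2.62 in DP, 1.95 (B12) and 2.21 (B9) in nEnd and 1.45 to 2.08 in 2iLIF and NACL. The Fgfr1 score for H3K27ac was 0.98 in both nEnd libraries, above the range of 0.00 to 0.68 in pluripotent ones, as for 21.6% of genes in this direction. With 20 kb in place of 50 kb on each side the direction reversed, to -0.37 for nEnd minus pluripotent (exact permutation p = 0.214 over 28 splits), and the strongest nEnd peaks of the wider window lay at 83.1 and 83.4 kb, by the start of Nsd3. Ranked by total signal the difference was 0.08 and the groups overlapped (exact permutation p = 0.643).

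H3K4me1 at Fgfr1 covered 15.3% to 26.6% of the window in the 6 pluripotent libraries, 27.3% in DP, and 9.57% and 1.6% in nEnd, there again only downstream of the gene. Over genome coverage this was 3.52 to 5.51 times in pluripotent libraries, 3.76 in DP and 1.57 and 0.545 in nEnd. Its score was 0.91 ± 0.23 (SD, n = 6) in pluripotent cells and 0.25 ± 0.27 (SD, n = 2) in nEnd, without overlap, as for 11.6% of genes in this direction (exact permutation p = 0.0714, adjusted p = 0.245). With 20 kb on each side the difference was -0.91 against -0.67.

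**Figure D4:**
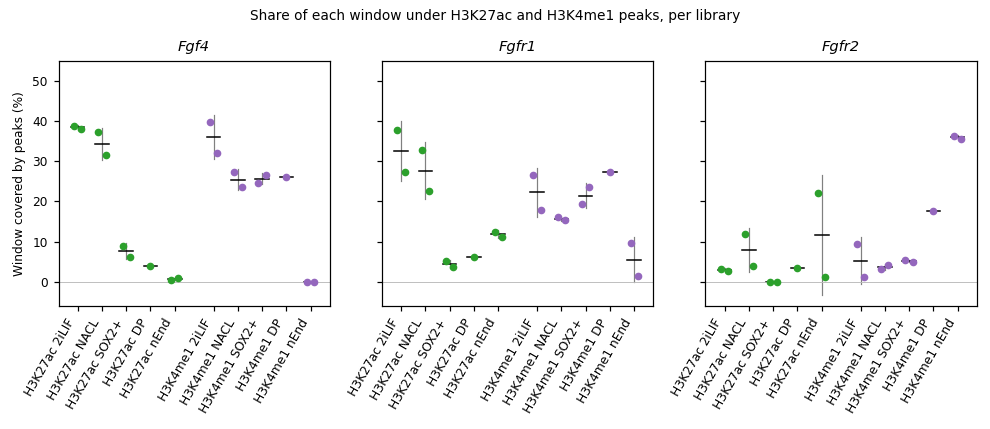
Share of each window covered by H3K27ac (green) and H3K4me1 (purple) peaks, in percent, with 1 point per library, the black line at the mean and the grey line ± SD where a group has 2 libraries. H3K4me1 is at 0 in both nEnd libraries at Fgf4 and at 36.4% and 35.6% at Fgfr2, and nEnd H3K27ac at Fgfr2 splits into 22.1% and 1.22%.

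At the start sites, within 1 kb, the marks followed those over the window at Fgf4, but only in part at the receptor genes. For Fgfr1, H3K27ac was at no start in nEnd, although its score over the window was higher in nEnd than in pluripotent cells. For Fgfr2, H3K4me1 was absent from the RefSeq start in nEnd, although over the window it was broadest there. The RefSeq start of Fgf4 carried H3K27ac in 2 of 2 libraries of 2iLIF and of NACL, in 1 of 2 of SOX2+, in DP and in 0 of 2 of nEnd. At the start sites of Fgfr2, H3K27ac was found in 1 of 2 NACL and 1 of 2 nEnd libraries (B12) and nowhere else. The RefSeq start of Fgfr1 had it in both 2iLIF libraries, 1 NACL library and DP, and in no SOX2+ or nEnd library, while a start inside the gene at 13.4 kb had it in both SOX2+ libraries as well. H3K4me1 was within 1 kb of some start of Fgf4 and of Fgfr1 in every pluripotent library and in neither nEnd library. At Fgfr2 it was at the RefSeq start in SOX2+ A and DP, whereas both nEnd libraries had it only at a start 4.95 kb inside the gene. Over all genes, H3K27ac was at a start in both libraries for 56.5% (2iLIF), 58.2% (NACL), 16.2% (SOX2+) and 39.7% (nEnd), and H3K4me1 for 11.9%, 9.1%, 38.7% and 10.7%. In the single DP library of each mark, H3K27ac was at a start for 41.5% of all genes and H3K4me1 for 69%.

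The 250 bases before the RefSeq starts of Fgf4 (chr7:144861136-144861385, plus strand) and Fgfr2 (chr7:130266809-130267058, minus strand) are shown as the sequence at the starts whose marks are described above. None of the SOX, OCT or GATA letters occurred in either, while they occurred in 25.2%, 2.4% and 16.6% of the 32851 RefSeq promoter windows of this length. No SOX2 or GATA6 peak lay within 1 kb of either RefSeq start.
Fgf4 promoter: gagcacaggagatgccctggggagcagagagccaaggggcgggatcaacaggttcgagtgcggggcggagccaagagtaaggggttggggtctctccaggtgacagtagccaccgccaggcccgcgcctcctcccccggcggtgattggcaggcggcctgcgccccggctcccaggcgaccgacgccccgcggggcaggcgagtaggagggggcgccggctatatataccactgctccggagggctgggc
Fgfr2 promoter: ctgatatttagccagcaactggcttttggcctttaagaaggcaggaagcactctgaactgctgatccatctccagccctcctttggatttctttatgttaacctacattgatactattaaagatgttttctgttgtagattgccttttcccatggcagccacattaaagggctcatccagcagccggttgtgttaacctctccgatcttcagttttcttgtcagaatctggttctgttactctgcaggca

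**Figure D5:**
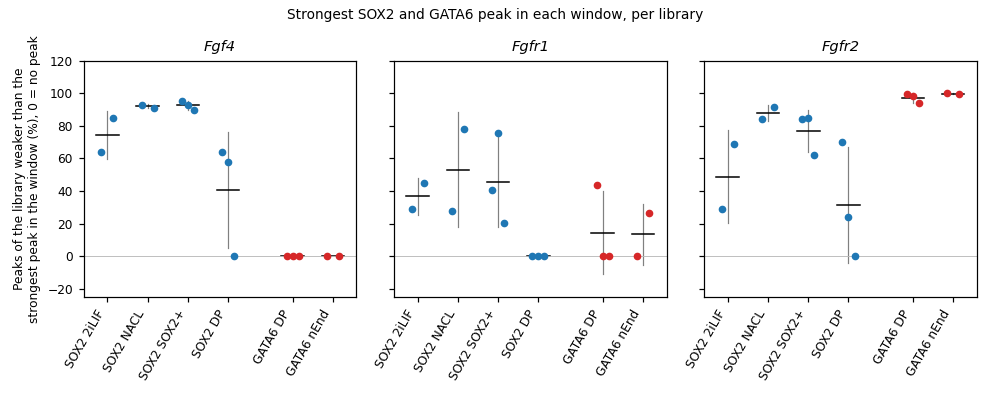
Strongest SOX2 (blue) and GATA6 (red) peak in each window, as the percent of the library's own peaks that are weaker, with 0 for no peak, 1 point per library, the black line at the mean and the grey line ± SD. GATA6 points are at 0 in all 5 libraries at Fgf4 and between 93.8% and 99.9% at Fgfr2, and SOX2 in DP is below the NACL and SOX2+ means at each gene.

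SOX2 in DP cells was compared with the pluripotent libraries at equal list length (N = 1378). Only the SOX2 peak of Fgf4 in NACL B12 (score 0.07), SOX2+ A (0.22) and SOX2+ B (0.12) and that of Fgfr2 in DP A (0.01) were among the 1378 strongest, and no Fgfr1 peak was. The Fgf4 means were 0.00 in DP (n = 3) and 0.06 ± 0.08 (SD, n = 7) in pluripotent cells (exact permutation p = 0.583), or 0.11 ± 0.11 (SD, n = 3) in SOX2+ alone (exact permutation p = 0.4, the smallest possible being 0.1). By this score none of the 3 genes separated the groups in a SOX2 or GATA6 comparison. Fgfr1 scored 0.00 in every SOX2 and GATA6 library, and Fgf4 in every GATA6 library. They could not separate there and are not among the genes tested. Of the genes tested, the groups separated for 6.7% (DP higher) and 3.89% (pluripotent higher) of 4088. The shares were 11.1% and 14% of 3333 for DP against SOX2+, and 19.1% and 20.6% of 4285 for GATA6 in DP against nEnd. Of all genes, 0% passed an adjusted p of 0.05 in any of the 5 comparisons by the exact permutation test. At an unadjusted p under 0.05 there were 561 genes for DP against pluripotent SOX2 and 0 in the others, whose designs cannot reach it. By the share of weaker peaks in the whole list, which does not equalise list length, the DP minus pluripotent difference was -46.39 percentage points at Fgf4 (exact permutation p = 0.0333, adjusted p = 0.14). It was -45.21 points at Fgfr1 (exact permutation p = 0.0167, the smallest possible, adjusted p = 0.0799) and -40.66 points at Fgfr2 (exact permutation p = 0.0833, adjusted p = 0.24), where the DP and pluripotent peaks lie at opposite ends of the gene.

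Of 9 regions in the 3 windows with SOX2 in at least 2 pluripotent libraries, 1, at the last exon of Fgf4, was also held in at least 2 DP libraries, beside 13.1% genome-wide. Of 2 regions with SOX2 in at least 2 DP libraries, 1, downstream of Fgfr2, had GATA6 in at least 2 DP libraries, beside 27.9% genome-wide. The 2iLIF and NACL libraries, whose media differ in both the MEK inhibitor and Activin A, both held the leading SOX2 region of Fgf4 and the intron 1 region of Fgfr2. They differed at the upstream region of Fgf4 and the 26.3 kb region of Fgfr1, each found in 2 of 2 NACL and 0 of 2 2iLIF libraries. The 2iLIF lists are shorter, with 8203 (B12) and 13177 (B9) peaks against 17111 (B12) and 29623 (B9) in NACL. At both regions the NACL B12 peak exceeded only 28.01% of its list. The share of such regions over the genome was not counted. With 2 libraries of each medium, this difference was not tested, and list length and the 2 agents cannot be told apart.

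Other genes of the pathway were described by the same counts from a list of 53 names, 52 of them matched (Spry3 was not). A region with SOX2 in at least 2 pluripotent libraries lay in the windows of 44 of 52 genes, beside 67.7% of all genes, and one with SOX2 in at least 2 DP libraries in 18, beside 20.7%. Both counts include Fgf3 and Fgf15, whose windows contain the last-exon SOX2 region of Fgf4. GATA6 was held in DP at 21 of 52, beside 20.8%, and in nEnd at 38 of 52, beside 62%. A region with both SOX2 and GATA6 in at least 2 DP libraries lay at 10 of 52, beside 6.68%. By role, these 10 were 1 of 17 other ligands (Fgf10), 2 of 5 receptors and coreceptors (Fgfr4 and Kl, the Klotho coreceptor), 2 of 18 transducers (the adaptor Frs2 and the kinase Araf) and 5 of 12 inhibitors. The inhibitors were Spry2, Spred2, Il17rd, Dusp6, the ERK phosphatase, and Nf1, a Ras GTPase-activating protein. The median window was 138.2 kb for the inhibitors, 161.8 kb for the transducers, 115.9 kb for the receptors and 109.4 kb for the ligands, against 118.2 kb for all genes.

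The shared region at Il17rd, which encodes the FGF receptor antagonist SEF, was the most widely occupied of these. It lies 55.3 kb inside the gene (chr14:27093800-27094788) and had SOX2 in all 7 pluripotent and 3 DP libraries and GATA6 in 3 DP and 2 nEnd libraries. That of Dusp6, downstream of the gene (chr10:99293023-99293743), had SOX2 in 7 pluripotent and 2 DP libraries and GATA6 in 2 DP and 2 nEnd libraries. Shared regions lacking SOX2 in every pluripotent library, as at Fgfr2, lay at Spred2, an inhibitor of Raf activation (2 regions), and at Fgf10, Kl and Frs2 (1 each). H3K27ac was at a start in both nEnd libraries for 25 of 52 genes, beside 39.7%, and in all 6 pluripotent libraries for 13, beside 16.1%. Among the ligands the former held for 1 of 17 (Fgf10) and the latter for 0.

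Over the 33 libraries with a group, the genes whose strongest-peak rank varied most like that of Fgf4 were Ifitm7 (Pearson r = 0.89), Morc1 (0.88), Stk39 (0.86), Stac (0.84) and Baz2b (0.84). For Fgfr1 they were 1700001O22Rik (0.80), Csad, Slit3 and Fyn (0.79 each) and Nek7 (0.78). For Fgfr2 they were Aldh18a1 (0.94), Entpd1 and Tctn3 (0.93 each), which lie side by side on chromosome 19 and share peaks, Tnfaip8 (0.91) and Fam47e (0.90). Between the members r was 0.56 for Fgf4 and Fgfr1, -0.53 for Fgf4 and Fgfr2 and -0.43 for Fgfr1 and Fgfr2. These are descriptions over libraries of 4 antibodies that differ in list length, and they carry no test.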

How the data were processed

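Mouse SGGC cells were profiled by CUT&RUN, and 35 deposited peak lists (of 53 samples; 18 IgG controls were not used here) were analysed. The submitters' processing notes name Cutadapt 1.18, Bowtie2 2.3.4.1, SAMtools 1.9, Picard 2.9.1, bedtools 2.27.1, deepTools 3.2.0 and SEACR, with mm10 (GRCm38). The lists deposited by the authors give each peak's total and maximum coverage signal, on each library's own scale. Their names give SEACR's relaxed setting for histone marks and its stringent one for SOX2 and GATA6, which is the reverse of the published methods. Signal was therefore used only for ranks within a library, with ties averaged. Read depth is unknown, and the number of peaks (1378 to 401853) limits what a list can show.

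Gene bodies were those of RefSeq GRCm38.p6 (20482 protein-coding genes on chromosomes 1 to 19, X and Y), with further start sites of GENCODE M21 protein-coding transcripts in the gene or within 10 kb of it. Genes whose symbol GENCODE does not place on 1 strand were left out. Overlap meant 1 bp. SOX2 and GATA6 peaks of 15 libraries were merged, and a population held a region when at least 2 of its libraries did. Regions named are the 6 with peaks in most libraries per gene, and others named beyond these were chosen after their values were seen. The 5 comparisons used exact permutation tests over libraries, two-sided (2 times the smaller tail), on the log10 rank of the strongest peak at equal list length, with Benjamini-Hochberg adjustment over all genes. Libraries of a group are separate samples, and p-values measure only the spread between them. The genes, lists and tests were chosen with earlier results of these data known. The rank test was tested on simulated data. Python 3.11.15, NumPy 2.4.6, pandas 2.3.3 and SciPy 1.17.1 were used.

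The H3K27ac and H3K4me1 libraries of KOSR experiment B labelled both DP and SOX2+ entered no comparison. The NACL B12 SOX2 library was placed by its title, since its source name gives IgG and no medium. An unexplained tag, sub02, is part of the label of DP GATA6 A, and whether it bears on the length of that list was not tested. Experiment pairs the sorted populations only in part: same-experiment correlations of deviations were 0.08, 0.18 and 0.22.

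Alternatives were other rank measures and windows, stricter overlaps, replicate blocks and leaving out each library.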

Additional observations from a re-analysis of the deposited data

Results flagged for a closer look

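The 2 histone libraries of KOSR experiment B whose labels name both DP and SOX2+ cells were used in no comparison, and they held peaks in these windows above the limit of 3 counts that a count of 0 allows. The H3K27ac library had 5 peaks at Fgfr1, and 2 at Fgf4 and 0 at Fgfr2, which are under that limit. The H3K4me1 library had 7 peaks at Fgf4, 15 at Fgfr1 and 14 at Fgfr2, covering 23.4%, 23.6% and 9.56% of the windows. At Fgfr2 the DP library covered 17.7% and the SOX2+ libraries 5.36% and 4.98%. Which population these libraries came from was not tested.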

How the results depend on the processing

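No alternative for the rank differences (198 in all) passed an adjusted p of 0.05. Where the reported difference was not 0.00 (124 alternatives), 119 kept its sign, 4 took the opposite sign and 1 went to 0.00, that of Fgfr2 H3K27ac without nEnd B12. Where it was 0.00 and so had no direction (74 alternatives), 14 moved off it. Of 123 alternatives for region counts, 100 stayed within 1.5 times and 23 did not. The cause of these changes was not tested, beyond what each setting leaves out.

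At Fgfr1 the nEnd minus pluripotent H3K27ac difference turned to -0.37 with the gene body plus 20 kb and to -0.66 as the covered share of the window over that of the genome, a measure chosen after seeing the data. As the share of weaker peaks among all peaks, Fgfr2 gave -0.14 for H3K27ac, -45.52 for SOX2 in DP against SOX2+ and -40.66 for SOX2 in DP against pluripotent cells, both reported as 0.00. By the same measure Fgfr1, also at 0.00, gave -45.68, -45.21 and, for GATA6, 1.20, and with the gene body plus 100 kb it gave -0.12, -0.06 and 0.52. Without nEnd B12 the Fgfr2 GATA6 difference was 0.22 and without nEnd B9 it was -0.53.

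With 1 library enough to hold a region, counts were 5 for SOX2 in pluripotent cells at Fgf4 and 5 at Fgfr2, 1 for GATA6 in DP and 1 in nEnd at Fgfr1, 18 for GATA6 in nEnd at Fgfr2, and 2 for SOX2 in DP and 2 for SOX2 with GATA6 in DP at Fgfr2. With the stronger 50% of peaks, SOX2 in pluripotent cells counted 1 region at each gene, and at Fgfr2 GATA6 in nEnd counted 5, SOX2 in DP 0 and both in DP 0. Leaving out 1 library gave 0 to 1 for SOX2 in DP at Fgf4 and at Fgfr2 and for SOX2 with GATA6 there (0 without DP A or DP A1), 3 to 5 for GATA6 in DP at Fgfr2 (3 without DP A or DP A1), 10 to 18 for GATA6 in nEnd at Fgfr2 (18 without B9) and 0 to 1 at Fgfr1 (1 without B12).

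With experiment as a replicate block, the SOX2 difference between DP and SOX2+ was -0.11 at Fgf4 and 0.00 at both receptors. With clone as a replicate block, the H3K27ac difference was -1.27 at Fgf4, 0.58 at Fgfr1 and 0.36 at Fgfr2. The block changed no call. Each DP library correlated best with the SOX2+ library of its own experiment, a hint of pairing from the data, but the correlation in experiment A (0.08) was not over 0.1. No blocked fit was made for H3K4me1, whose nEnd libraries are both B9, or for GATA6, whose DP libraries are all clone B12 and match 1 nEnd library by clone.

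Read depth is unknown, and a short list (1378 peaks in DP B for SOX2) can miss a weak region. With 2 or 3 libraries a group the permutation tests of 4 of 5 comparisons cannot reach 0.05.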
